A study of Mus musculus with 16 samples.

Results

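Collagens are the rope-like proteins of the extracellular matrix, each built from 3 alpha chains that wind into a triple helix. In the heart, fibroblasts secrete the fibrillar types I and III that form the tensile network around cardiomyocytes, and type IV chains form the sheet of the basement membrane around cardiomyocytes and vessels. Other members decorate fibrils, form beaded filaments, anchor basement membranes or span the plasma membrane. The mineralocorticoid receptor (MR), encoded by Nr3c2, is a steroid receptor for aldosterone and corticosterone that is known for its link to cardiac fibrosis.

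The genes described here are those whose symbol has the form Col, number, a, number. They numbered 44 of the 19096 gene symbols on the array and were read by 76 probes. By chain type, 11 were fibrillar, 6 were type IV chains of the basement membrane and 27 belonged to other classes. A gene was tested where some group had all 4 of its arrays well above background, which held for 37 of the 44. Of these, 35 were above background on all 16 arrays, and the other 2, Col19a1 and Col25a1, were above it on 12 arrays each. The 7 genes that were not tested were Col10a1, Col24a1, Col28a1, Col6a5, Col6a6, Col9a1 and Col9a3.

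The study measured RNA from whole hearts of male C57BL/6 mice on 1-colour microarrays, to ask what loss of MR in cardiomyocytes changes at 2 ages. The cardioMRKO mice carried the floxed MR allele together with a Cre driven by the cardiomyocyte αMHC promoter. Their controls, labelled MRflox, were littermates with the same floxed allele and no Cre. Each genotype was sampled at 1 month and at 2 months, with 4 mice per group and 16 arrays in all. Every group therefore carried the floxed allele, and no group had Cre without it. Only cardiomyocytes lose the receptor in this design, so the fibroblasts and vessel cells of the cardioMRKO hearts keep it.

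Levels are given as log2 of the processed spot signal relative to the 75th percentile of the same array, and a difference of 1 on this scale is a change of 2-fold. They can be compared between arrays for 1 gene but not between genes, since probes differ in brightness. On single arrays 62.5% to 71.6% of probes were well above background and 0 spots were saturated, while the 75th percentile of the signal ran from 527 to 1091. The median spike-in signal deviated by -0.80 on MRflox replicate 4 and by -0.54 on cardioMRKO replicate 3, both at 2 months, and by -0.30 to 0.31 on the other 14 arrays (log2). The 4 arrays of each group shared a slide and a scan, so group and slide cannot be told apart in any comparison below. In whole tissue, fewer cells of a type and less RNA per cell cannot be told apart either. The Nr3c2 probe, whose place relative to the deleted exons was not looked up here, read 0.17 lower in cardioMRKO at 1 month and 0.43 lower at 2 months. Neither value passed the threshold (limma adjusted p = 0.988 and 0.122; differences of -0.17 and -0.43).

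The clearest pattern in the collagen genes was a fall between 1 and 2 months of age, seen in both genotypes. In MRflox hearts 18 of the 37 tested genes fell, 3 rose and 16 did not pass an adjusted p of 0.05 (limma, Benjamini-Hochberg over all 20055 genes). Over all genes tested, 5.91% fell and 16.7% rose in this comparison. In cardioMRKO hearts 15 of the 37 fell, 0 rose and 22 did not pass, against 4.93% and 5.32% of all genes that fell and rose. The median difference of the collagen genes was -0.59 in MRflox and -0.41 in cardioMRKO, beside medians of 0.07 and 0.00084 over all genes. With the mean of a gene's probes in place of the brightest probe, the collagen medians were -0.35 and -0.15, beside 0.05 and 0.0078 over all genes. All 15 genes that fell in cardioMRKO were among the 18 that fell in MRflox. The 2 comparisons use different arrays but share the probe and 1 estimate of the spread per gene, so their calls are not independent. Of the 35 genes above background on every array, 18 fell and 2 rose in MRflox and 15 fell in cardioMRKO.

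**Figure D1:**
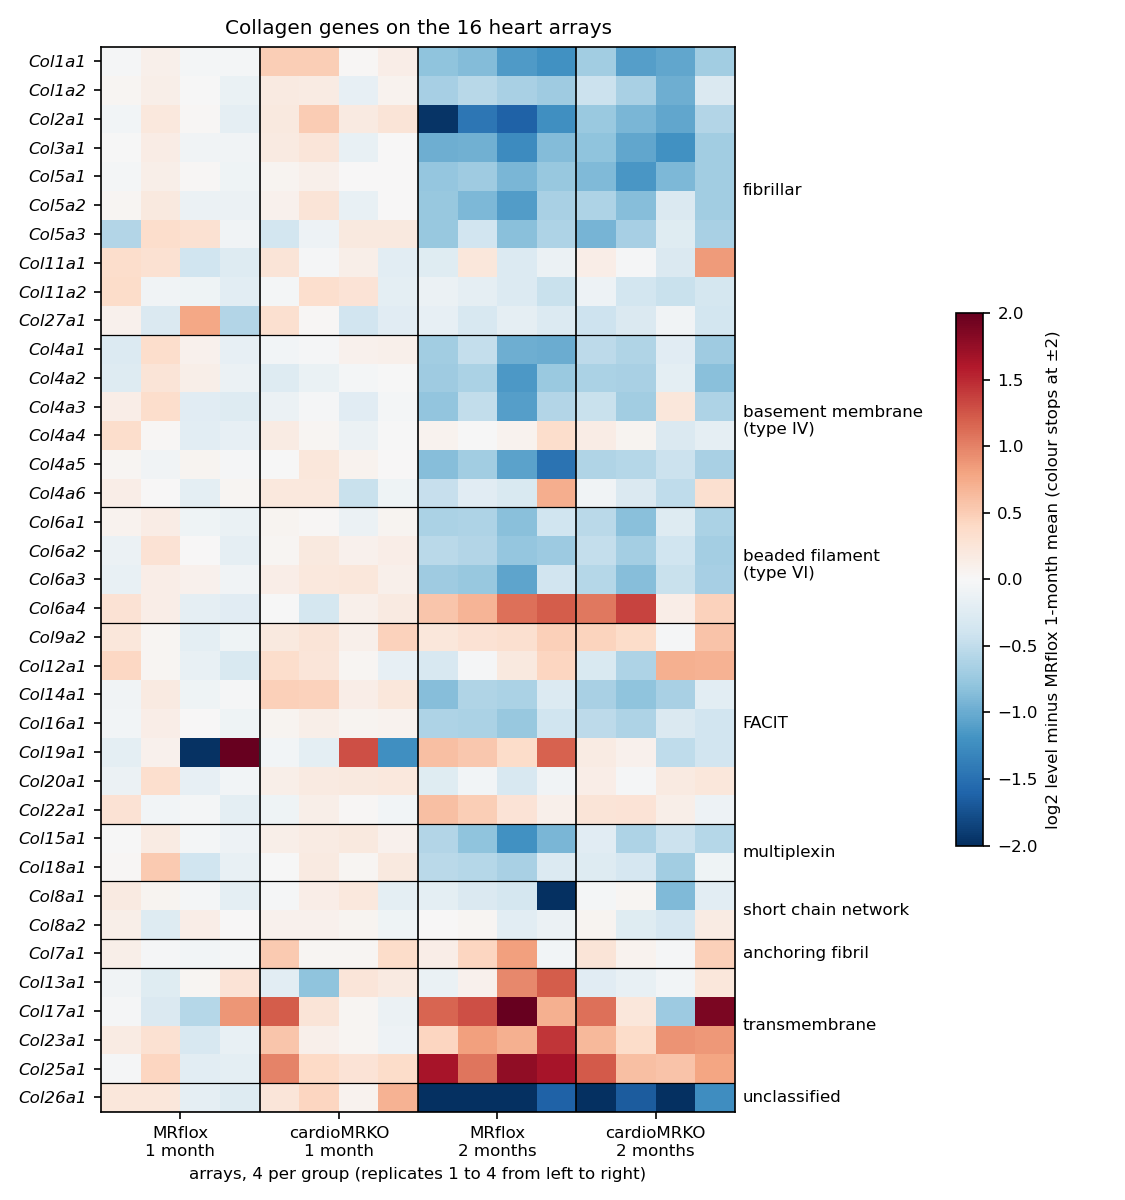
Level of each of the 37 tested collagen genes (rows, grouped by class) on each of the 16 arrays (columns), as log2 level minus the gene's mean over the 4 MRflox arrays at 1 month; blue is lower and red is higher. The rows of Col1a1, Col1a2, Col3a1, Col5a1, Col4a1, Col4a2, Col4a5, Col6a1, Col6a2 and Col6a3 are blue on all 8 arrays of 2-month hearts, and those of Col23a1 and Col25a1 are red on all 8.

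The size of these backgrounds depends on how the arrays are scaled. Of the genes called in MRflox 73.9% rose, and with the array median in place of the 75th percentile 49.9% rose. In cardioMRKO the shares were 51.9% and 30.7%. Median scaling moved the median over all genes from 0.07 to -0.11 in MRflox and from 0.00084 to -0.11 in cardioMRKO, and the share of all genes that fell from 5.91% to 11.2% and from 4.93% to 6.81%. This scaling moves all genes of an array by the same amount, so the distance of the collagen median from that of all genes, -0.66 in MRflox and -0.41 in cardioMRKO, cannot change with it.

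Fibrillar collagens assemble into the cross-striated fibrils that bear load. In MRflox 7 of the 10 tested fibrillar genes fell, with a class median of -0.72, and all 10 differences lay below 0 (9 of 10 with normexp background correction). In cardioMRKO 6 of 10 fell, with a median of -0.66, and 9 of 10 lay below 0 (10 of 10 with quantile normalization). These signs are those of the brightest probe of each gene. Second probes of Col2a1, Col5a3 and Col11a2 read higher at 2 months in MRflox, as given below. On the scale of each gene's mean at 1 month in MRflox, the class median of single arrays ran from -0.13 to 0.13 in MRflox and from 0.01 to 0.20 in cardioMRKO at 1 month. At 2 months it ran from -0.87 to -0.63 in MRflox and from -0.76 to -0.61 in cardioMRKO. The arrays of the 2 ages did not overlap, and those of the 2 genotypes did at each age.

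Col1a1 encodes the alpha 1 chain of type I collagen, the main fibre of the cardiac interstitium. Its log2 level was 5.01, 5.14, 4.99 and 4.99 in the 4 MRflox hearts at 1 month and 4.23, 4.17, 3.89 and 3.82 at 2 months. In cardioMRKO it was 5.53, 5.52, 5.06 and 5.17 at 1 month and 4.33, 3.93, 4.00 and 4.34 at 2 months. Every 2-month heart thus lay below every 1-month heart, whatever the genotype. Over all genes tested, 8.09% had all 4 arrays lower at 2 months in MRflox and 10.8% in cardioMRKO. These shares are the background wherever lower 2-month arrays without overlap are given below. The Col1a1 difference was -1.004 ± 0.14 (SE) in MRflox, or 49.9% of the 1-month level (limma adjusted p = 0.000359). In cardioMRKO it was -1.16 ± 0.14, or 44.6% (adjusted p = 0.00033). The other 2 Col1a1 probes also read lower at 2 months, by -0.98 and -0.56 in MRflox and by -1.03 and -1.17 in cardioMRKO.

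Col1a2 encodes the alpha 2 chain that joins a pair of alpha 1 chains in the type I trimer. In MRflox it read 5.59, 5.67, 5.55 and 5.42 at 1 month and 4.89, 4.996, 4.91 and 4.85 at 2 months. The cardioMRKO hearts read 5.74, 5.73, 5.39 and 5.62 at 1 month and 5.13, 4.91, 4.59 and 5.27 at 2 months. The ages did not overlap within either genotype, and the difference was -0.64 ± 0.13 (SE) in both (limma adjusted p = 0.00322 in MRflox and 0.0073 in cardioMRKO). Within single arrays the distance from Col1a2 to Col1a1 shifted with age. Set to a mean of 0 in MRflox at 1 month, Col1a1 minus Col1a2 ran from -0.06 to 0.10 there and from -0.51 to -0.14 at 2 months. In cardioMRKO it ran from 0.07 to 0.32 at 1 month and from -0.46 to -0.06 at 2 months. The signal of the brightest Col1a1 probe was thus lower relative to that of Col1a2 in the older hearts of both genotypes, as a description of these probes. Another Col1a1 probe fell by less than Col1a2 in MRflox, so the shift does not hold for every probe.

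Col3a1, the single chain of type III collagen that forms thin fibrils together with type I, showed the same picture. Its level was 6.23, 6.39, 6.16 and 6.17 in MRflox at 1 month and 5.26, 5.28, 4.97 and 5.37 at 2 months. In cardioMRKO it was 6.42, 6.47, 6.08 and 6.25 at 1 month and 5.44, 5.20, 5.03 and 5.54 at 2 months. No 2-month value reached a 1-month value. The difference was -1.02 ± 0.13 (SE) in MRflox (limma adjusted p = 0.000224) and -1.002 ± 0.13 in cardioMRKO (adjusted p = 0.00046). A second Col3a1 probe differed by -1.001 and -1.02.

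The stretches before the start of these genes are shown because both genes fell with age and the stretches differ in base composition. RefSeq promoter windows on GRCm38.p6 were matched by symbol for 35 of the 44 genes, and Col1a1 is not among those 35. The 250 bases before the start are printed 5′ to 3′ on the gene's strand, with capitals for matches to 3 motifs on either strand. These are the CCAAT box, with ATTGG as its complement. The GC box is GGGCGG, with CCGCCC as its complement. The TATA box is TATAAA, with TTTATA as its complement. Col1a2 lies at chr6:4505368-4505617 on the plus strand, and Col3a1 at chr1:45311288-45311537 on the plus strand.
Col1a2: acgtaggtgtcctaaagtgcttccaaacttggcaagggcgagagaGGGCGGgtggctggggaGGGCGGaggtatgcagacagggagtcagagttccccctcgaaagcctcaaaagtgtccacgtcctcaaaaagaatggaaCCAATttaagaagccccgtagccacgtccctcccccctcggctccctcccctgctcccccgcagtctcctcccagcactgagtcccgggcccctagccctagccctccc
Col3a1: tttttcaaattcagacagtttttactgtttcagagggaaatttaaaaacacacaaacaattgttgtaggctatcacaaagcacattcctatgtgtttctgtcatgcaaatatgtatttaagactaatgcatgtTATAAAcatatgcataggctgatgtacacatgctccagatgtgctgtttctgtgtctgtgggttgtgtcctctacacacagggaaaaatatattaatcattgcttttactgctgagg
The Col1a2 stretch is 62.0% G and C and holds 2 matches to GGGCGG and 1 to CCAAT. The Col3a1 stretch is 35.2% G and C and holds 1 match to TATAAA. No matches overlapped each other in these stretches (0 shared bases).

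Across the 35 matched collagen genes, 13 held CCAAT or its complement, 21 held GGGCGG or its complement and 5 held TATAAA or its complement before the start. Of all 32851 windows of the same length, 33.8%, 32.7% and 12.4% held these motifs. The collagen counts are per gene, with a match in any of its windows (38 windows in all), and the shares are per window, so the measures differ. The median share of G and C was 59.0% in the collagen windows and 52.4% in all windows. Among the 12 matched genes that fell in MRflox, the counts were 6, 7 and 1, and among the 17 tested genes that did not fall they were 6, 12 and 3. A match is a run of letters and not a measured binding site.

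Type V chains regulate fibril diameter by joining type I fibrils. Col5a1 read 3.02, 3.17, 3.07 and 2.96 in MRflox at 1 month and 2.28, 2.35, 2.14 and 2.29 at 2 months. Col5a1 in cardioMRKO was 3.11, 3.15, 3.07 and 3.06 and then 2.17, 1.89, 2.15 and 2.36. The ages were far apart in both genotypes, with differences of -0.79 ± 0.10 (SE; limma adjusted p = 0.000196) and -0.95 ± 0.10 (adjusted p = 0.000112). Col5a2, the second type V chain, fell by 0.86 in MRflox and by 0.67 in cardioMRKO. Col5a3 fell by 0.65 in MRflox, with arrays of the ages overlapping. Leaving out MRflox replicate 2, 3 or 4 at 1 month or replicate 1, 3 or 4 at 2 months ended the Col5a3 call (limma adjusted p = 0.0625 to 0.115), and a second probe differed by 0.08. In cardioMRKO Col5a3 differed by -0.60 and did not pass (adjusted p = 0.0841).

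Col2a1, the collagen of cartilage and of embryonic valves, gave results that differ between its probes. On the brighter probe it read 2.26, 2.53, 2.32 and 2.13 in MRflox at 1 month and 0.36, 0.86, 0.69 and 1.08 at 2 months. In cardioMRKO that probe read 2.51, 2.82, 2.49 and 2.57 and then 1.57, 1.40, 1.27 and 1.73. The ages did not overlap, and the difference was -1.56 ± 0.15 (SE; limma adjusted p = 6.58e-05) in MRflox and -1.10 ± 0.15 (adjusted p = 0.000664) in cardioMRKO. The second Col2a1 probe, above background on all 16 arrays, read 0.86 ± 0.22 higher at 2 months in MRflox and 0.23 ± 0.22 higher in cardioMRKO. With the mean of both probes Col2a1 differed by -0.35 in MRflox and -0.44 in cardioMRKO and did not pass (limma adjusted p = 0.109 and 0.0829), so its direction depended on the probe. Of 7 other cartilage genes 4 were tested, and 2 of them rose with age in each genotype, where 16.7% and 5.32% of all genes rose. Of these, Snorc had all 4 arrays above background only in MRflox at 2 months. It was tested on account of that group, so its test supports nothing by itself.

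The remaining fibrillar genes did not pass in either genotype. Col11a1 and Col11a2 encode type XI chains, which sit in cartilage fibrils, and Col27a1 encodes a fibrillar chain of cartilage matrix. They differed by -0.11, -0.25 and -0.24 in MRflox and by 0.14, -0.41 and -0.22 in cardioMRKO. A second Col11a2 probe, above background on 12 arrays, differed by 2.18 in MRflox and 0.40 in cardioMRKO. Col24a1 was above background on 0 arrays.

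**Figure D2:**
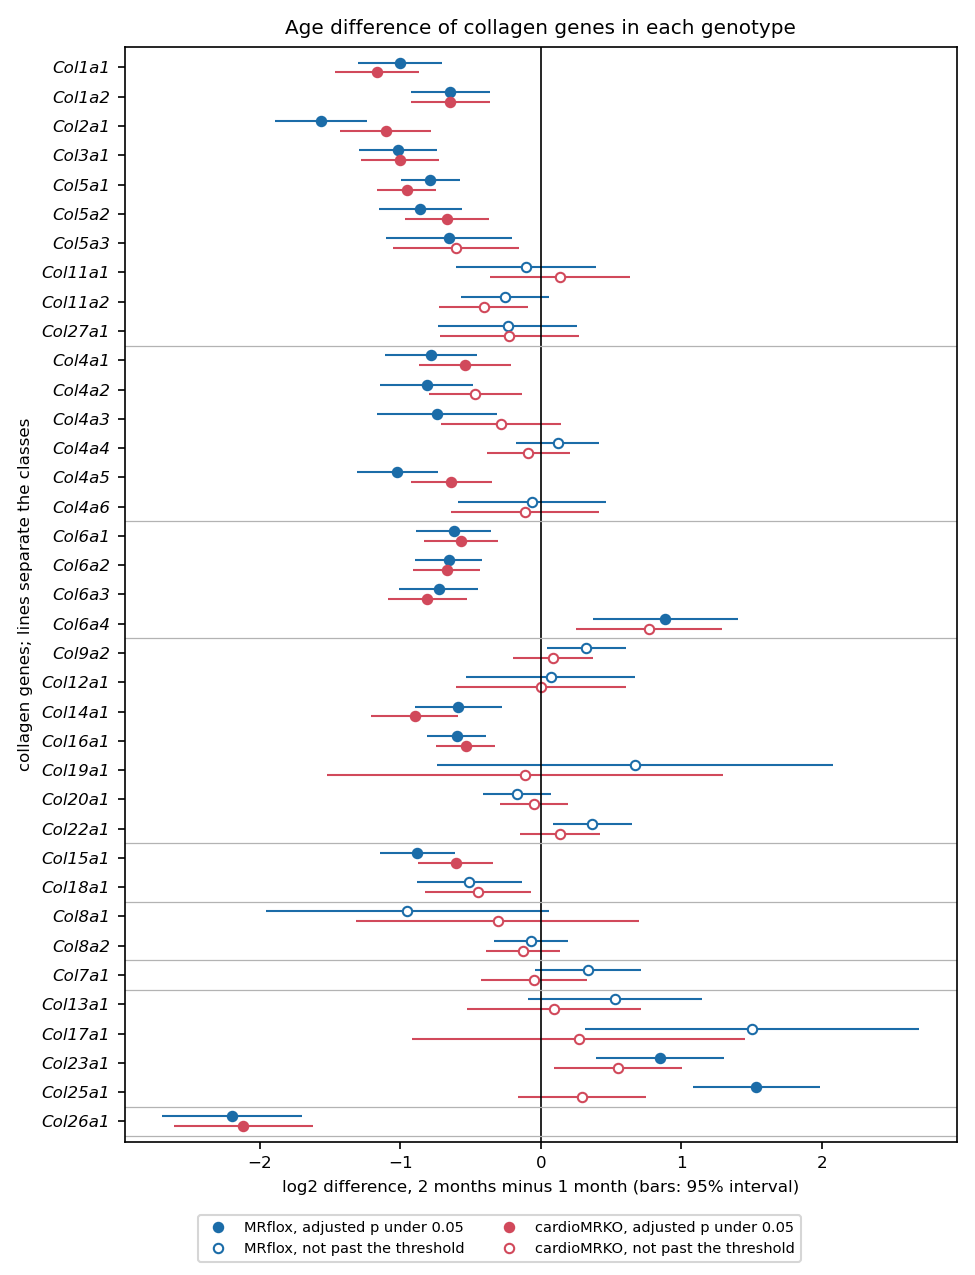
Difference between 2 months and 1 month for the 37 tested collagen genes (rows, with lines between classes), on a log2 axis, in MRflox (blue) and cardioMRKO (red); bars are 95% intervals, and filled points passed an adjusted p of 0.05. In MRflox 18 filled points lie left of 0 and 3 right of it, and in cardioMRKO all 15 filled points lie left of 0.

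Type IV collagen forms the network of basement membranes, where the alpha 1 and alpha 2 chains are found in nearly all tissues and the alpha 3 to alpha 6 chains in selected ones. In MRflox 4 of the 6 type IV genes fell, with a median of -0.76, and in cardioMRKO 2 of 6 fell, with a median of -0.37. On the single-array scale used above, the class median ran from -0.14 to 0.13 and from -0.07 to 0.01 in MRflox and cardioMRKO at 1 month. At 2 months it ran from -1.02 to -0.48 in MRflox and from -0.64 to -0.26 in cardioMRKO, so the genotypes overlapped at both ages. None of the 6 genes passed the test of whether the age difference depended on genotype (limma; smallest adjusted p = 0.477, with 0 of 6 at an unadjusted p under 0.05).

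Col4a1 read 3.96, 4.59, 4.31 and 4.07 in MRflox at 1 month and 3.54, 3.76, 3.26 and 3.24 at 2 months. In cardioMRKO it read 4.18, 4.21, 4.31 and 4.34 and then 3.71, 3.63, 4.01 and 3.52. The ages did not overlap in either genotype. The difference was -0.78 ± 0.15 (SE; limma adjusted p = 0.00243) in MRflox and -0.54 ± 0.15 (adjusted p = 0.037) in cardioMRKO. The cardioMRKO call ended when any 1 of 7 arrays of that genotype was left out (every replicate at 1 month, and replicates 1, 2 and 4 at 2 months; limma adjusted p = 0.0586 to 0.0928).

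Col4a2, whose chain joins a pair of alpha 1 chains in the common trimer, starts 21 bases from Col4a1 and runs the other way. It read 4.16, 4.66, 4.53 and 4.29 in MRflox at 1 month and 3.69, 3.77, 3.26 and 3.67 at 2 months. The cardioMRKO values were 4.15, 4.27, 4.38 and 4.40 and then 3.77, 3.77, 4.21 and 3.58. The MRflox ages did not overlap, and in cardioMRKO replicate 3 at 2 months lay within the 1-month range. Col4a2 fell by 0.81 in MRflox (limma adjusted p = 0.00208), and its difference of -0.47 in cardioMRKO did not pass (adjusted p = 0.0712). The within-array difference Col4a1 minus Col4a2 stayed between -0.25 and 0.21 on all 16 arrays, relative to its mean in MRflox at 1 month.

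The other type IV pairs behaved less alike. Col4a5 read -0.69, -0.81, -0.68 and -0.76 in MRflox at 1 month and -1.59, -1.43, -1.80 and -2.21 at 2 months. In cardioMRKO it read -0.75, -0.51, -0.66 and -0.72 and then -1.33, -1.30, -1.17 and -1.39. Every 2-month heart lay below every 1-month heart, with differences of -1.02 ± 0.13 (SE; limma adjusted p = 0.000253) in MRflox and -0.64 ± 0.13 (adjusted p = 0.00864) in cardioMRKO. Col4a6, which starts 1343 bases from Col4a5 on the opposite strand, differed by -0.06 (95% interval -0.59 to 0.46) in MRflox and by -0.11 (-0.64 to 0.42) in cardioMRKO. In MRflox Col4a6 read -0.22, -0.35, -0.55 and -0.31 at 1 month and -0.83, -0.58, -0.67 and 0.38 at 2 months. Replicates 1, 2 and 3 at 2 months thus lay below every 1-month value and replicate 4 above, so the mean difference near 0 depends on replicate 4. In MRflox Col4a5 minus Col4a6 ran from -0.09 to 0.25 at 1 month and from -2.20 (replicate 4) to -0.38 at 2 months, without overlap. In cardioMRKO the same quantity ran from -0.23 to 0.52 and then from -0.98 to 0.08, with overlap.

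The upstream stretches of this last pair are shown because the genes are neighbours on opposite strands whose readings differed. On GRCm38.p6 Col4a5 lies at chrX:141475169-141475418 on the plus strand and Col4a6 at chrX:141474077-141474326 on the minus strand, with capitals as above.
Col4a5: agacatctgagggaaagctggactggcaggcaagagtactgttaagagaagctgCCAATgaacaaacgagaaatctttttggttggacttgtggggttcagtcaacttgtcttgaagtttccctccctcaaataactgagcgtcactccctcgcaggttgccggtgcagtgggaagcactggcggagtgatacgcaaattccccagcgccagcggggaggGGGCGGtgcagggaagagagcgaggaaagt
Col4a6: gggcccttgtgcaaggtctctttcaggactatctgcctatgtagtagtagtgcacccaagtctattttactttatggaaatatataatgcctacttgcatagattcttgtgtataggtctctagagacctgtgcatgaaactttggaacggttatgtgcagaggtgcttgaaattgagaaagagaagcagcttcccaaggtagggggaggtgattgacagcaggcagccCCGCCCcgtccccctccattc
The Col4a5 stretch holds 1 match to CCAAT and 1 to GGGCGG, and the Col4a6 stretch holds 1 match to CCGCCC.

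Col4a3 and Col4a4, neighbours that encode chains of the glomerular basement membrane, also parted. Col4a3 fell by 0.74 in MRflox (limma adjusted p = 0.0157). Its call ended without MRflox replicate 2 at 1 month or replicate 3 at 2 months (limma adjusted p = 0.051 and 0.0533, as the lowest and highest). It differed by -0.28 in cardioMRKO without passing. Col4a4 differed by 0.12 in MRflox and by -0.09 in cardioMRKO and did not pass in either (limma adjusted p = 0.558 and 0.752).

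**Figure D3:**
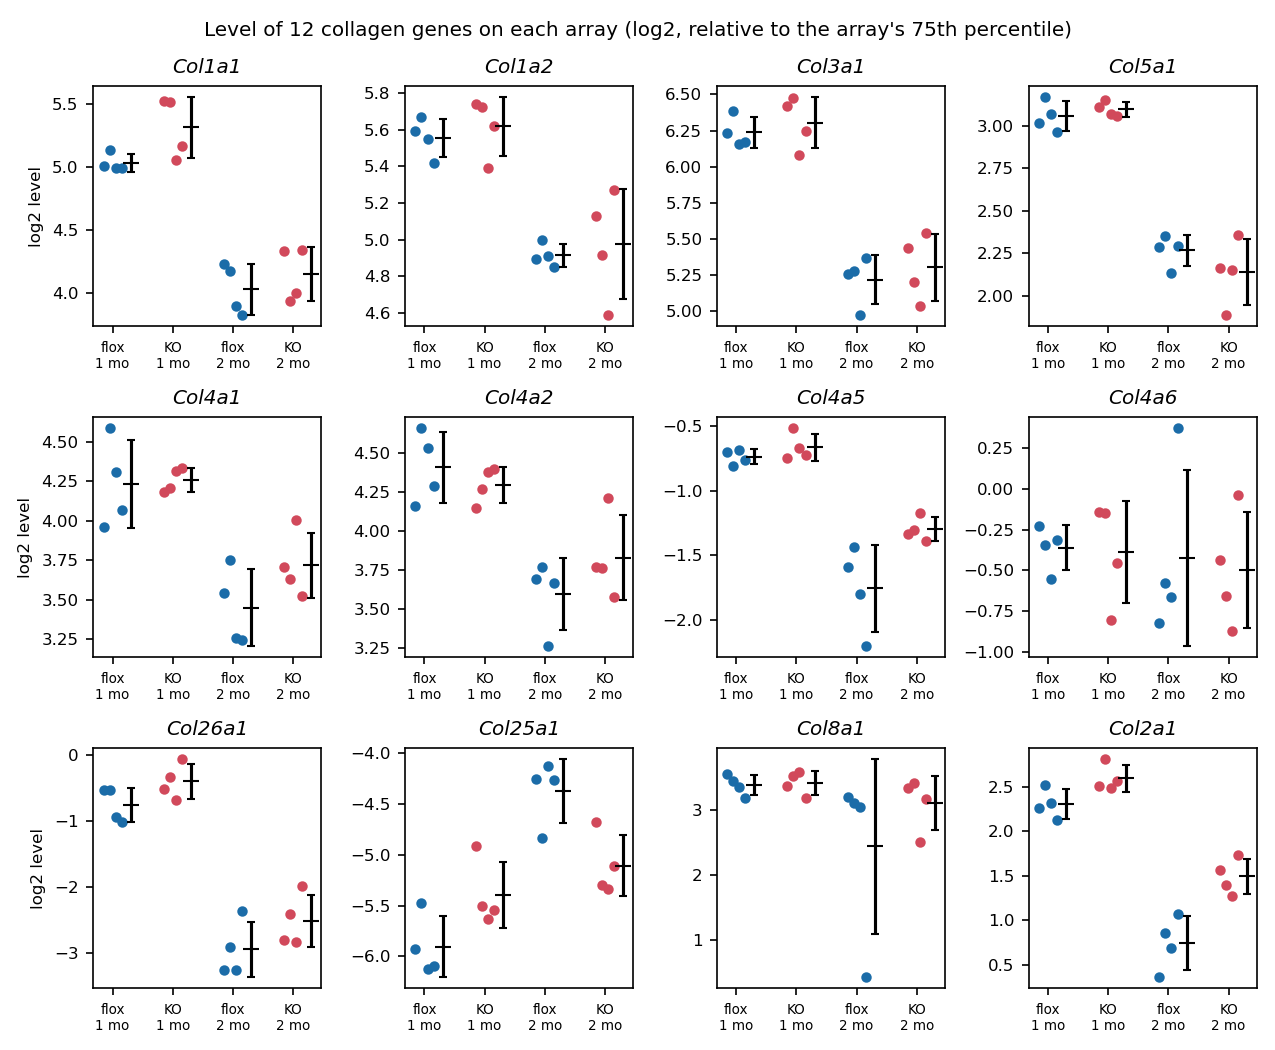
Log2 level of 12 collagen genes on each array (points; blue MRflox, red cardioMRKO) by genotype and age, with the group mean and SD beside the points (4 arrays per group); each panel has its own axis. Within each genotype the 2-month points lie below the 1-month points for Col1a1, Col1a2, Col3a1, Col5a1, Col4a1, Col4a5, Col26a1 and the brighter Col2a1 probe, whereas Col4a6 overlaps in all 4 groups. Over all genes tested, all 4 arrays were lower at 2 months for 8.09% in MRflox and 10.8% in cardioMRKO.

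The other 21 tested genes fell into smaller classes that did not move as one. In MRflox 7 fell and 3 rose, and in cardioMRKO 7 fell and 0 rose, with medians of -0.07 and -0.11. Type VI collagen forms beaded filaments that link cells to the fibrillar network. Its 3 main chains fell in both genotypes: Col6a1 by 0.62 and 0.57, Col6a2 by 0.66 and 0.67, and Col6a3 by 0.73 and 0.81 in MRflox and cardioMRKO. Within arrays Col6a1 minus Col6a2 stayed between -0.21 and 0.34 of its mean in MRflox at 1 month. The type VI chain Col6a4 rose by 0.89 in MRflox (limma adjusted p = 0.0163), and its difference of 0.77 in cardioMRKO did not pass (adjusted p = 0.0581). The MRflox call of Col6a4 ended without replicate 3 or replicate 4 at 1 month (limma adjusted p = 0.0503 and 0.0505, as the lowest and highest).

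The fibril-associated collagens (FACIT) attach to the surface of fibrils. Col14a1 read 1.90, 2.15, 1.88 and 1.95 in MRflox at 1 month and 1.12, 1.37, 1.34 and 1.70 at 2 months. Col14a1 in cardioMRKO was 2.44, 2.43, 2.10 and 2.19 and then 1.32, 1.17, 1.33 and 1.76. The ages did not overlap, and the difference was -0.59 ± 0.15 (SE; limma adjusted p = 0.01) in MRflox and -0.90 ± 0.15 (adjusted p = 0.00183) in cardioMRKO. Col16a1 fell by 0.60 and 0.53. The other 5 tested FACIT genes did not pass in either genotype, with differences from -0.17 to 0.67 in MRflox and from -0.11 to 0.14 in cardioMRKO. The value of 0.67 is that of Col19a1. This gene had all 4 arrays above background only in MRflox at 2 months and was tested on account of them. Multiplexins sit at basement membranes and release anti-angiogenic fragments. Col15a1 fell by 0.88 in MRflox and by 0.61 in cardioMRKO, and Col18a1 differed by -0.51 and -0.44 without passing (limma adjusted p = 0.0509 and 0.129).

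Col26a1, which is not placed in these classes, had the lowest age difference of the 37 in both genotypes. It read -0.54, -0.53, -0.94 and -1.01 in MRflox at 1 month and -3.26, -2.91, -3.27 and -2.37 at 2 months. Values in cardioMRKO were -0.52, -0.33, -0.68 and -0.06 and then -2.80, -2.42, -2.84 and -1.996. The ages were more than 1 log2 unit apart in each genotype. The difference was -2.20 ± 0.23 (SE; limma adjusted p = 9.86e-05), or 21.8% of the 1-month level, in MRflox and -2.12 ± 0.23 (adjusted p = 0.000163), or 23.0%, in cardioMRKO.

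The 4 transmembrane collagens, which span the plasma membrane and shed their outer part, had differences above 0 in MRflox. Of all 20055 genes tested, 11709 lay above 0 in MRflox and 10051 in cardioMRKO. Col25a1 read -5.93, -5.47, -6.12 and -6.10 in MRflox at 1 month and -4.26, -4.84, -4.13 and -4.26 at 2 months. In cardioMRKO it read -4.92, -5.50, -5.63 and -5.54 and then -4.67, -5.30, -5.34 and -5.11. The MRflox ages did not overlap (19.9% of all genes had all 4 MRflox arrays higher at 2 months), while those of cardioMRKO did. The signal was well above background on 1 of 4 arrays in MRflox at 1 month, on 3 in cardioMRKO at 1 month and on all 4 of both 2-month groups. The gene was tested on account of its 2-month arrays, where it is high, so its call in MRflox supports nothing by itself. The fitted difference of 1.53 in MRflox is set against a group with 3 of 4 arrays not well above background and is no exact size. In cardioMRKO the fitted difference was 0.29. Col23a1 rose by 0.85 in MRflox (limma adjusted p = 0.0107) and differed by 0.55 in cardioMRKO (adjusted p = 0.124). Its MRflox call ended with the level of lung epithelium markers, given below, as a covariate. Col13a1 and Col17a1 differed by 0.53 and 1.51 in MRflox without passing. All 4 lay above 0 in cardioMRKO, but with median scaling or normexp background correction 3 of 4 did.

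Col8a1, a short chain collagen of vessel walls, is given because 1 array stood apart, and was chosen after its values were seen. It read 3.20, 3.11, 3.05 and 0.41 in MRflox at 2 months, where replicate 4 stood far below the others. In MRflox at 1 month it read 3.57, 3.46, 3.36 and 3.19. It read 3.37, 3.53, 3.60 and 3.19 in cardioMRKO at 1 month and 3.35, 3.43, 2.52 and 3.18 at 2 months. Its age difference of -0.95 ± 0.47 (SE) in MRflox did not pass (limma adjusted p = 0.171). Col8a2 and the anchoring fibril collagen Col7a1 did not pass in either genotype, with differences between -0.13 and 0.33.

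Other cell types moved with age beside the collagens, and those values bear on what a whole-heart level can show. Of 8 fibroblast markers, 3 fell in MRflox and 2 in cardioMRKO, and of 6 activated fibroblast markers 4 and 3 fell, where 5.91% and 4.93% of all genes fell. The mean log2 level of the fibroblast list ran from 3.63 to 3.80 in MRflox and from 3.60 to 3.74 in cardioMRKO at 1 month, and from 3.36 to 3.69 and from 3.23 to 3.43 at 2 months. Of 6 dividing cell markers 5 fell in each genotype. That list's mean ran from -2.06 to -1.21 in MRflox and from -1.42 to -0.91 in cardioMRKO at 1 month, and from -3.40 to -2.84 and from -3.25 to -2.01 at 2 months. Of 7 cardiomyocyte markers 0 passed in either genotype. Of 7 endothelial markers 1 fell in MRflox and 2 in cardioMRKO, and 0 rose. Of 5 adipocyte markers 2 rose in MRflox and 1 in cardioMRKO, and of 6 B and T cell markers 3 and 4 rose. Over all genes 16.7% and 5.32% rose. Lep, Adig and Cd79a of these lists were tested on account of their 2-month arrays, so their tests support nothing by themselves. The part of these cell types in the collagen differences was not tested.

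Markers of lung epithelium also differed between arrays. With age 5 of 6 rose in MRflox, where 16.7% of all genes rose, and 0 in cardioMRKO. None of the 6 passed the test of whether the age difference depended on genotype. Sftpc, Sftpa1 and Sftpd had all 4 arrays above background only in the 2-month groups and were tested on account of them. Their tests support nothing by themselves. The mean level over the 6 lung genes was -5.68, -5.30, -6.16 and 2.93 in MRflox and 2.05, -0.53, -5.88 and -0.92 in cardioMRKO at 1 month. At 2 months it ran from 2.25 to 5.47 in MRflox and from 0.19 to 2.94 in cardioMRKO. MRflox replicate 4 at 1 month, whose lung level lay within the 2-month range, had a fibrillar class median of -0.13, beside -0.02 to 0.13 on the other 3 arrays of its group and -0.87 to -0.63 at 2 months. This is a single array, and it is part of the 1-month mean that it is set against, which draws its value toward 0. The part of lung tissue in the collagen differences was not tested. Without the 4 arrays of lowest lung level at 1 month, which leaves 1 MRflox array at 1 month that is assumed to vary like the other groups, 6 collagen genes were called in MRflox and 12 in cardioMRKO. The genes called over all went from 4543 to 1134 in MRflox and from 2055 to 908 in cardioMRKO, and the collagen medians were -0.48 and -0.34. The collagen genes called there in MRflox were Col1a1, Col3a1, Col4a5, Col26a1, Col2a1 and Col25a1. The second Col2a1 probe read higher with age in MRflox. Col25a1 was tested on account of its 2-month arrays, so its call supports nothing by itself. With the lung level as a covariate 13 were called in MRflox and 14 in cardioMRKO, with collagen medians of -0.51 and -0.39 and 1355 and 1537 genes called over all.

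**Figure D4:**
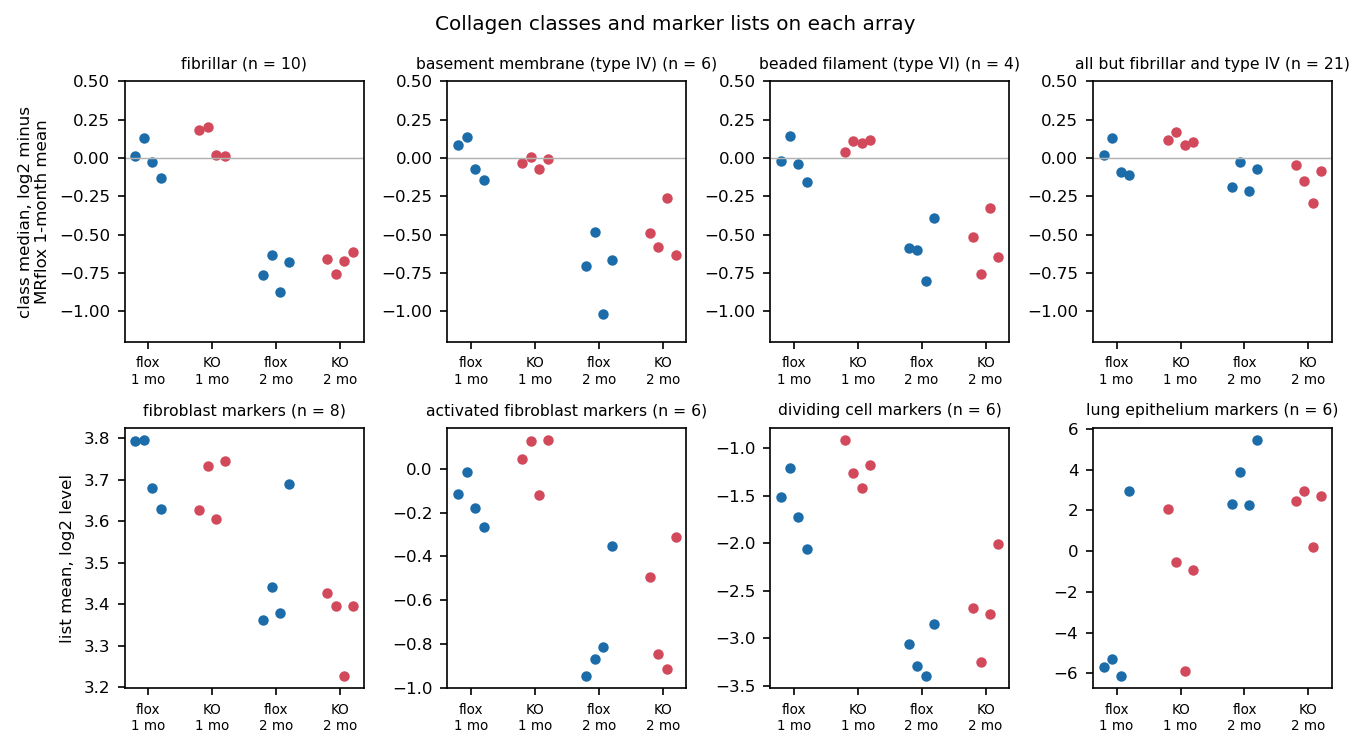
Upper row: median over the genes of a class on each array, as log2 level minus the gene's MRflox 1-month mean, for fibrillar (10 genes), type IV (6), type VI (4) and all genes that are neither fibrillar nor type IV (21). Lower row: mean log2 level of 4 marker lists on the same arrays; blue is MRflox and red is cardioMRKO. The upper class medians of fibrillar, type IV and type VI genes do not overlap between ages, and lung epithelium markers are below -5 on 3 MRflox arrays and 1 cardioMRKO array at 1 month.

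Genes that build, trim and bind collagen were counted from 7 lists with 101 genes, of which 93 were tested. In MRflox 26 fell and 2 rose with age, with a median of -0.22, where 5.91% of all genes fell and 16.7% rose. In cardioMRKO 14 fell and 1 rose, with a median of -0.16, where 4.93% and 5.32% of all genes did. None of the 93 passed the test of whether the age difference depended on genotype. A pathway gene named below for 1 genotype only is thus not shown to differ between genotypes in its age difference. Among basement membrane partners 5 of 10 fell and 1 rose in MRflox and 3 fell in cardioMRKO. Nid2 and Nid1, nidogens that bridge laminin and type IV collagen, fell by 1.08 and 0.69 in MRflox and by 0.83 and 0.60 in cardioMRKO. Lamb1, a laminin chain, fell by 0.76 and 0.52. Among fibril partners 8 of 17 fell in MRflox and 5 in cardioMRKO. Postn, a matricellular protein of fibroblasts, fell by 0.83 and 0.89, and Eln, the core of elastic fibres, by 1.03 and 1.43. Sparc, a collagen-binding glycoprotein, fell by 1.18 in MRflox, and Lum, a proteoglycan on fibrils, by 0.45 in MRflox and 0.55 in cardioMRKO.

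Enzymes for collagen maturation moved in part. Among 11 tested genes for propeptide cleavage and crosslinking, 3 fell and 1 rose in MRflox and 4 fell in cardioMRKO. Adamts2, which removes the amino propeptide, fell by 0.75 and 0.62, and Loxl2, a lysyl oxidase, by 1.34 and 1.30. Adamts14, a relative of Adamts2, rose by 0.81 in MRflox, and Bmp1, which cleaves the carboxy propeptide, fell by 0.46 in cardioMRKO. Of 20 genes for hydroxylation and folding, 4 fell in MRflox and 1 in cardioMRKO, the latter near the 4.93% of all genes that fell. P3h3 and P3h1, of the prolyl 3-hydroxylase family, fell by 0.47 and 0.82 in MRflox. Colgalt2, which adds galactose to hydroxylysine, fell by 0.44 in MRflox and 0.52 in cardioMRKO.

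Of 14 degradation genes 4 fell in MRflox. Mrc2, an uptake receptor for cleaved collagen, fell by 1.23, Ctsk, a cysteine protease, by 0.62 and Mmp2, a gelatinase, by 0.56. In cardioMRKO 0 of these 14 passed as lower, and Mrc2, Ctsk and Mmp2 differed by -0.16, -0.42 and -0.36. Mmp9, another gelatinase, rose by 1.09 in cardioMRKO and differed by 0.65 in MRflox without passing. Of 6 tested collagen receptors Itga1, the integrin alpha 1 chain, fell by 0.39 in MRflox and 0 passed in cardioMRKO. Of 15 genes of transforming growth factor beta signalling, Ltbp1, which tethers the latent ligand to matrix, fell by 0.41 in MRflox and Smad7, an inhibitor of the pathway, by 0.89 in cardioMRKO. A count of 1 of 15 is near the share of all genes that fell in each genotype (5.91% and 4.93%). Dpt, Dcn, Lum, Postn, Fap, Lox and Comp stand in both a marker list and one of these lists.

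Between genotypes the collagen genes showed few differences. At 1 month 0 of 37 passed, against 0.0947% of all genes (limma; smallest adjusted p = 0.786). An unadjusted p under 0.05 was found for 2 of 37, a share not above that of all genes (1207 of 20055). The median difference, cardioMRKO minus MRflox, was 0.07, beside 0.02 over all genes. Col1a1 differed by 0.28 (95% interval -0.02 to 0.58), Col1a2 by 0.06 (-0.22 to 0.34) and Col3a1 by 0.07 (-0.21 to 0.35). Col4a1 differed by 0.03 (-0.30 to 0.35) and Col4a2 by -0.11 (-0.44 to 0.22). The values per heart given above overlap between genotypes for all 5 of these genes.

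At 2 months 1 of 37 rose and 0 fell, against 3.53% of all genes called in either direction and 1.55% that rose. An unadjusted p under 0.05 was found for 5 of 37, a share not above that of all genes (3775 of 20055). The count of genes called over all, 707 of 20055, varied with the arrays used. It lay between 306 of 20115 (without MRflox replicate 1) and 884 of 20065 (without cardioMRKO replicate 1) when 1 array was left out, and was 102 of 19682 with only the arrays of both groups. The median difference was 0.05, beside -0.08 over all genes. The gene that rose was Col2a1, whose brighter probe read 0.75 ± 0.15 (SE) higher in cardioMRKO, or 168% of MRflox (limma adjusted p = 0.0175). On that probe all 4 cardioMRKO hearts lay above all 4 controls, as they did for 2.87% of all genes. The second Col2a1 probe differed by -0.48 ± 0.22, and the mean of both probes by 0.14 (limma adjusted p = 0.657). The call also ended without cardioMRKO replicate 4 at 2 months (0.67; limma adjusted p = 0.0529), which had a mean skeletal muscle marker level of 2.27 beside 0.82 to 1.04 on the other arrays of its group. MRflox replicate 3 at 2 months had 2.57. The part of that tissue in the Col2a1 value was not tested.

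The main chains of interstitium and basement membrane did not pass at 2 months. Col1a1 differed by 0.12 (95% interval -0.18 to 0.42), Col1a2 by 0.06 (-0.22 to 0.34) and Col3a1 by 0.08 (-0.19 to 0.36). Col4a1 differed by 0.27 (-0.06 to 0.60) and Col4a2 by 0.23 (-0.10 to 0.56). Other members nearest the threshold, chosen after their values were seen, were Col25a1, with a difference of -0.73 (limma adjusted p = 0.0719), Col4a5, with 0.46 (adjusted p = 0.0756), and Col15a1, with 0.42 (adjusted p = 0.0843). All 4 cardioMRKO values of Col4a5 lay above the MRflox values, by the levels given above, as they did for 2.87% of all genes. Of the 93 pathway genes, Mrc2 rose by 0.84 in cardioMRKO at 2 months (limma adjusted p = 0.0259), and 0 passed at 1 month.

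**Figure D5:**
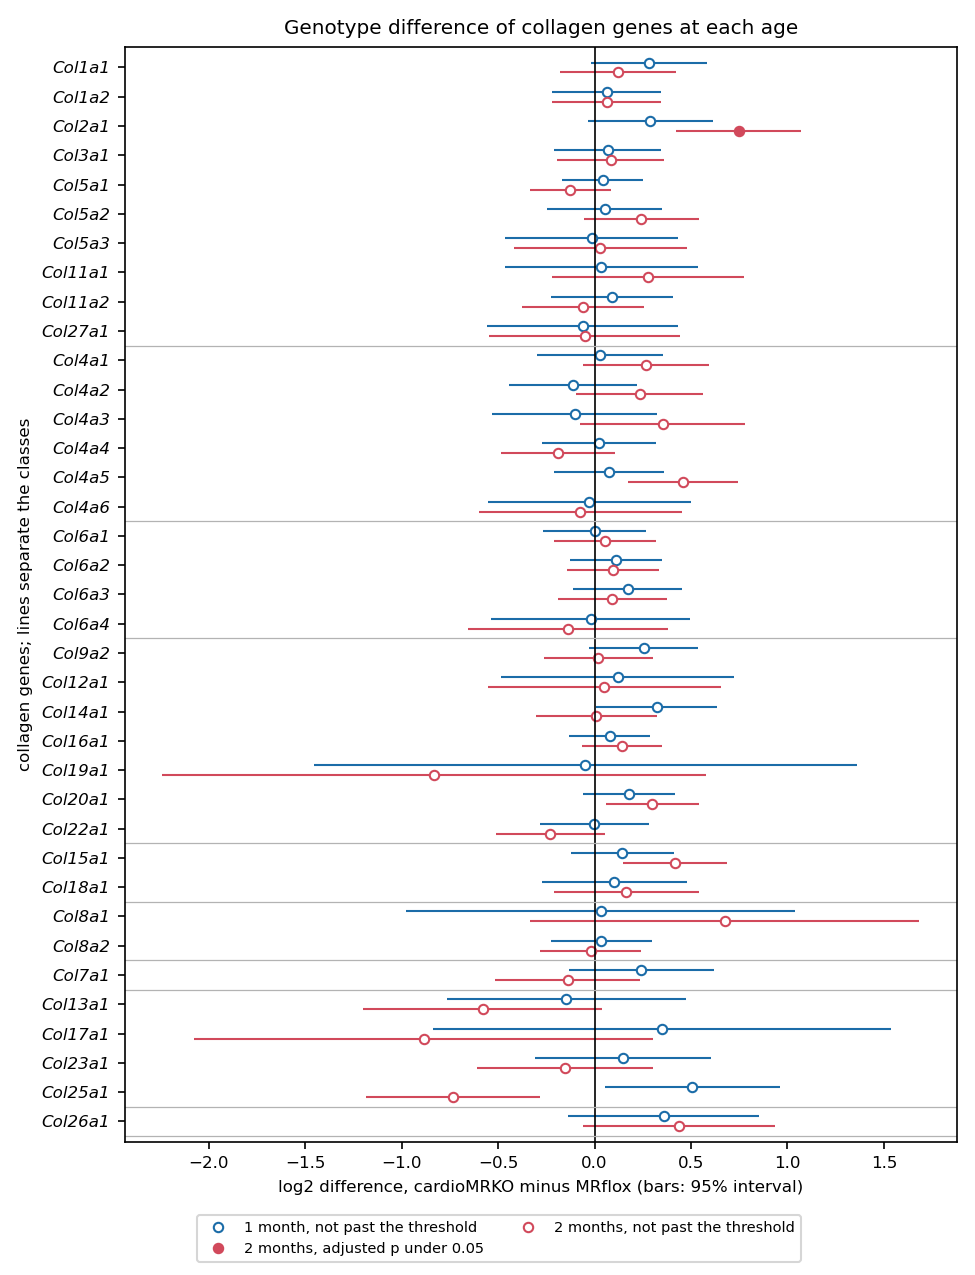
Difference between cardioMRKO and MRflox for the 37 tested collagen genes (rows, with lines between classes), on a log2 axis, at 1 month (blue) and 2 months (red); bars are 95% intervals, and the filled point passed an adjusted p of 0.05. The single filled point is Col2a1 at 2 months, at 0.75, and the intervals of Col1a1, Col1a2, Col3a1, Col4a1 and Col4a2 include 0 at both ages.

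Whether the genotype difference changed with age, or equally the age difference with genotype, was tested by the interaction term. None of the 37 genes passed (0 of 37, against 0.748% of all genes; limma; smallest adjusted p = 0.0769, for Col25a1). An unadjusted p under 0.05 was found for 2 of 37, a share not above that of all genes (2264 of 20055). The Col25a1 value rests on 1-month arrays of which 4 of 8 were well above background, so no size is given for it. The 6 genes called with age only in MRflox, Col25a1, Col6a4, Col23a1, Col4a2, Col4a3 and Col5a3, are thus not shown to differ between genotypes in their age difference. For Col1a1 the interaction was -0.16 (95% interval -0.58 to 0.26), for Col1a2 4.8e-05 (-0.40 to 0.40) and for Col3a1 0.02 (-0.38 to 0.41).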

How the data were processed

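RNA of 16 whole hearts was hybridised in Cy3 to 1-colour Agilent arrays. Each deposited file holds the spot intensity of 1 array (processed signal, background-subtracted on a linear scale, per the file headers). The software was Agilent Feature Extraction, version 12.0.0.7 per the file headers and 9.5 per the submitters' processing notes. The array's design build is mm9. The authors' value table held the same intensity values, with a largest difference of 0.

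Spots flagged as outliers (78 to 427 per array) were set missing, spots of a probe were averaged, and the deposited intensity was expressed as log2 minus the array's 75th percentile. The log2 values were used with no pseudocount. Symbols were assigned through RefSeq accessions for 28223 of 41174 probes. A probe was kept where some group had all 4 arrays well above background (27277 probes), with the brightest probe per gene by its mean over all arrays: 20055 genes, of which 14953 had a symbol. One limma 3.58.1 model (R 4.3.3) with a mean per group was fitted to all 16 arrays, with 12 residual degrees of freedom and two-sided Benjamini-Hochberg adjusted p under 0.05. The scripts were checked on simulated data. Groups follow the labels, and the replicates are separate mice. The number of arrays limits the precision.

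Col1a1, Col1a2, Col3a1, Col4a1 and Col4a2, and up to 6 called genes per comparison by smallest p, were described array by array; of each pathway list up to 3 called genes were named. Members and lists were chosen with earlier results of these data known. Alternatives covered background correction, scaling, the filter, the probe rule, array weights, the replicate block, lung level as a covariate and left-out arrays.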

Additional observations from a re-analysis of the deposited data

Results flagged for a closer look

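Each of the 37 tested collagen genes was examined in each group for 1 array far from the other 3, with Dixon's 95% criterion for 4 values. Of 148 such groups 2 were flagged, where chance flags about 1 in 20. Col1a1 in MRflox at 1 month read 5.14 in replicate 2, beside 4.99 to 5.01 in the other 3. Col8a1 in MRflox at 2 months read 0.41 in replicate 4, beside 3.05 to 3.20 in the other 3.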

How the results depend on the processing

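None of the 21 alternatives per comparison was set up to read a gene by its other probes alone. The second probe of Col2a1 read the other way with age and between genotypes at 2 months, and that of Col5a3 with age in MRflox, as given above. No called collagen gene turned its direction in any of these 21. All 21 were passed by 11 of the 15 cardioMRKO age calls (Col1a1, Col1a2, Col3a1, Col5a1, Col5a2, Col6a1, Col6a2, Col6a3, Col14a1, Col16a1 and Col26a1). In MRflox 5 of 21 age calls passed every alternative run: Col1a1, Col3a1, Col4a5, Col26a1 and Col25a1, the last read largely at background in MRflox at 1 month and not tested under the filter for all 16 arrays. The MRflox age count of 21 fell to 13 with lung level as a covariate and to 6 without the 4 arrays of lowest lung level, a setting that leaves fewer arrays. Over all genes the calls went from 4543 to 1355 and 1134, and the collagen median from -0.59 to -0.51 and -0.48. The 2-month genotype count of 1 became 2 with normexp background correction and 0 with the mean of a gene's probes, with only the arrays of both groups, without both 2-month arrays of high skeletal muscle level and without the 4 arrays of lowest lung level. These last 2 settings were chosen after seeing the data. Leaving out 1 array gave 0 to 3 at 2 months (0 without cardioMRKO replicate 4, 3 without MRflox replicate 2, 2 without cardioMRKO replicate 1), 19 to 23 for age in MRflox, 14 to 18 for age in cardioMRKO, 0 to 1 for the interaction (1 without MRflox replicate 2 or cardioMRKO replicate 1, both at 2 months) and 0 to 0 at 1 month. With the replicate block the interaction count was 1 in place of 0, the 2-month genotype count 1, and the age counts 23 and 16; same-numbered arrays correlated from -0.31 to 0.36 in their deviations, with 10 of 24 over 0.1, and 8 of 16 arrays matched their own number best, so the numbers were not taken as pairs.

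Some genotype values that did not pass changed sign, and the cause was not tested. At 1 month Col1a2 was -0.079 with normexp, and Col4a1 was -0.020 with median scaling, -0.053 with the mean of probes and -0.028 with array weights. Leaving out 1 array gave -0.063 to 0.15 for Col4a1, below 0 without MRflox replicate 1 or 4. At 2 months Col1a1 was -0.049 with the mean of probes. Without the high skeletal muscle arrays Col1a2 was -0.038 and Col3a1 -0.078. Leaving out 1 array gave -0.037 to 0.19 for Col1a2, below 0 without cardioMRKO replicate 4. Signal over background limits Col19a1 and Col25a1, each above it on 12 of 16 arrays.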
